A study of Mus musculus with 6 samples.

Results

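The Hox genes encode homeodomain transcription factors that lie side by side in clusters named a to d, and 38 of them that had a probe on the array are described here. Members were the probes whose transcript accession mapped to a symbol made of Hoxa, Hoxb, Hoxc or Hoxd and a number. The 38 genes, of 20659 named on the array, were 10 of the Hoxa cluster on mouse chromosome 6, 10 of Hoxb on chromosome 11, 9 of Hoxc on chromosome 15 and 9 of Hoxd on chromosome 2. Of these, 19 passed the filter on dim signals and were tested, of 15617 genes tested in all.

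Within a cluster, genes at one end are active at the front of the embryo and early, and genes towards the other end, with higher numbers, are active further back and later. Genes of the same number in different clusters are paralogues. Retinoic acid and the caudal factors switch the clusters on, Polycomb complexes keep them silent, trithorax and MLL complexes keep them active, and PBX and MEIS proteins bind DNA together with the Hox proteins. In adults, fibroblasts and other stromal cells keep patterns of Hox expression that follow their position in the body.

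The samples were cultured adult mouse liver cells sorted for the tetraspanin CD63, a membrane protein of endosomes and exosomes, and the series' design text calls them cell lines. The 3 samples of the DDC injury group came from livers injured with DDC, a compound that inhibits haem synthesis and leads to bile duct damage, and the 3 samples of the no-injury group from livers without injury. Cells of both groups were grown in the same basal medium with serum, HGF, EGF, insulin, transferrin, selenium, dexamethasone and nicotinamide. VEGF and bFGF were added for some cultures, named in a way that matches no sample title, so their effect on the comparison was not tested. Strain, age, sex and the number of passages are not given in the labels, nor whether replicates were separate cultures or animals, so each p-value measures the spread between these samples, which may be technical. Each sample was hybridised to 1 one-colour Agilent array, and a gene's level is the log2 of its processed signal minus the log2 of the array's 75th percentile of signal.

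The arrays were not equally independent. No-injury replicates 1 and 3 differed by less than the noise of probes printed repeatedly on the array (chi-square 154 over 166 probes, p = 0.712). They were counted as 1 sample, which leaves 3 DDC injury samples against 2 no-injury samples. The spread between no-injury replicate 2 and replicates 1 and 3 was 1.27 and 1.80 times that noise. Among the DDC injury arrays it was 5.78 to 15.2 times. Whether the 2 no-injury samples are independent is therefore not known. The DDC injury arrays differed more: the median absolute difference over all genes tested was 0.185 log2 units between replicates 1 and 3, 0.255 between 2 and 3 and 0.371 between 1 and 2. DDC injury replicate 1 was scanned alone, on a different day from the other arrays. Replicates 2 and 3 were in another scan and the 3 no-injury arrays in yet another. Scan and group thus cannot be told apart between the groups. Between 65.0% and 74.8% of spots were well above background on each array. The lowest signal well above background lay at -6.97 on DDC injury replicate 2 and between -7.98 and -7.51 on the other 5 arrays, and Hox signals lay near these limits: the median over the 19 Hox genes tested was -6.46, against -0.84 over all genes tested. Cd63, on which the cells were sorted, lay between 3.65 and 4.07 on every array and did not differ beyond the spread (difference -0.11 ± 0.17, SE). Among the markers of other liver cells, Krt19 of bile duct cells lay between 3.39 and 4.01 and Msln of mesothelium between 4.43 and 4.80. Alb of hepatocytes lay between -7.41 and -5.52 in DDC injury and between -0.61 and -0.57 in no injury. Other markers of the same cells differed from these. Hnf4a of hepatocytes, named after its values were seen, lay between 3.34 and 3.91 in DDC injury and between 3.70 and 3.75 in no injury. Wt1 of mesothelium was well above background on 1 DDC injury array and on all 3 no-injury arrays. Single markers thus do not name the cells, and counts by list are given below.

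Detection of Hox genes differed most for the Hoxb cluster and for DDC injury replicate 2. Counting a gene as detected where any of its probes was well above background, DDC injury replicates 1, 2 and 3 had 16, 7 and 22 of the 38 genes and no-injury replicates 1, 2 and 3 had 18, 15 and 21. In the Hoxb cluster the same counts were 8, 1 and 9 of 10 genes in DDC injury and 4, 4 and 7 in no injury. In the Hoxa cluster they were 5, 3 and 7 of 10 genes in DDC injury and 6, 5 and 6 in no injury, and in the Hoxc cluster 2, 2 and 5 of 9 in DDC injury and 6, 5 and 5 in no injury. Of the 9 Hoxd genes, 1 was detected on each DDC injury array and 2, 1 and 3 on the no-injury arrays. The genes detected on all 6 arrays were Hoxa4, Hoxa9, Hoxc6 and Hoxc12. No array detected Hoxa11, Hoxa13, Hoxb1, Hoxc11, Hoxc13, Hoxd1, Hoxd3, Hoxd9, Hoxd12 or Hoxd13.

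**Figure D1:**
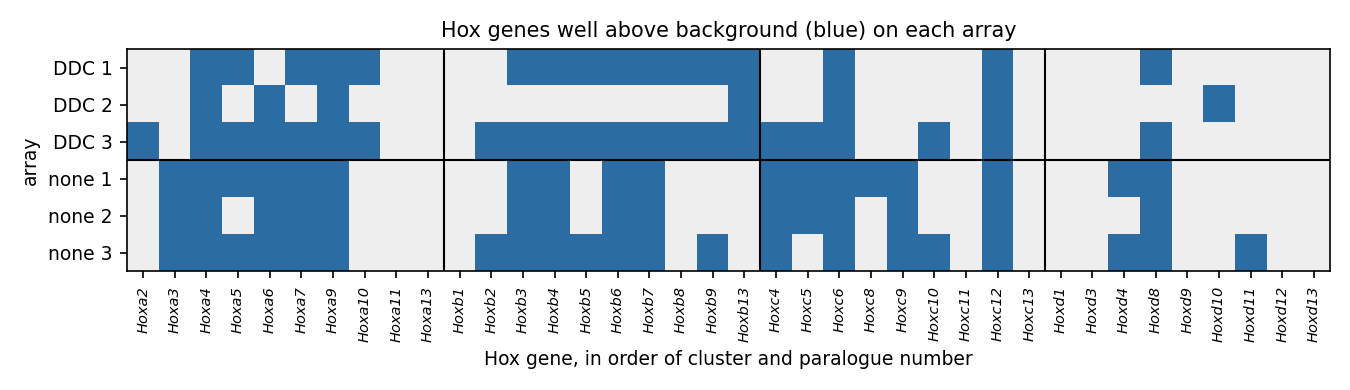
Detection of the 38 Hox genes (columns, by cluster and paralogue number) on the 3 DDC injury arrays and the 3 no-injury arrays (none 1 to none 3). Blue marks a gene with a probe well above background; the Hoxb columns hold 8, 1 and 9 blue cells on DDC injury replicates 1, 2 and 3.

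Between the groups, 2 of the 19 Hox genes tested here passed. By limma with Benjamini-Hochberg adjustment over all 15617 genes, 0 of the 19 were higher in DDC injury, where 17.7% of all genes were, and 2 of 19, Hoxa3 and Hoxc9, were lower, where 15.8% were. At an unadjusted p under 0.05 limma had 1 of them higher, against 23.5% of all genes, and 4 lower, against 21.7%. None of these counts was above the share over all genes. Hoxa3 and Hoxc9 passed the filter through the no-injury arrays alone, where they are high, so their calls describe these genes and support nothing about Hox genes at large. The median difference was 0.07 log2 units over the 19 Hox genes and -0.07 over all genes tested. The median SD over the DDC injury samples was 1.19 for Hox genes and 0.24 for all genes, which are brighter, and in no injury it was 0.10 and 0.05. No-injury arrays were all below the DDC injury arrays for 1 of 19 Hox genes, Hoxb13, against 31.5% of genes at large, and all above them for 5, Hoxa3, Hoxa7, Hoxc4, Hoxc6 and Hoxc9, against 31.5%. With all no-injury arrays merged as 1 sample, none of the 19 passed in limma, in which 2.19% of genes were called higher and 1.32% lower; at an unadjusted p under 0.05 it had 0 of them higher and 2 lower, against 13.7% and 11.9% of all genes.

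**Figure D2:**
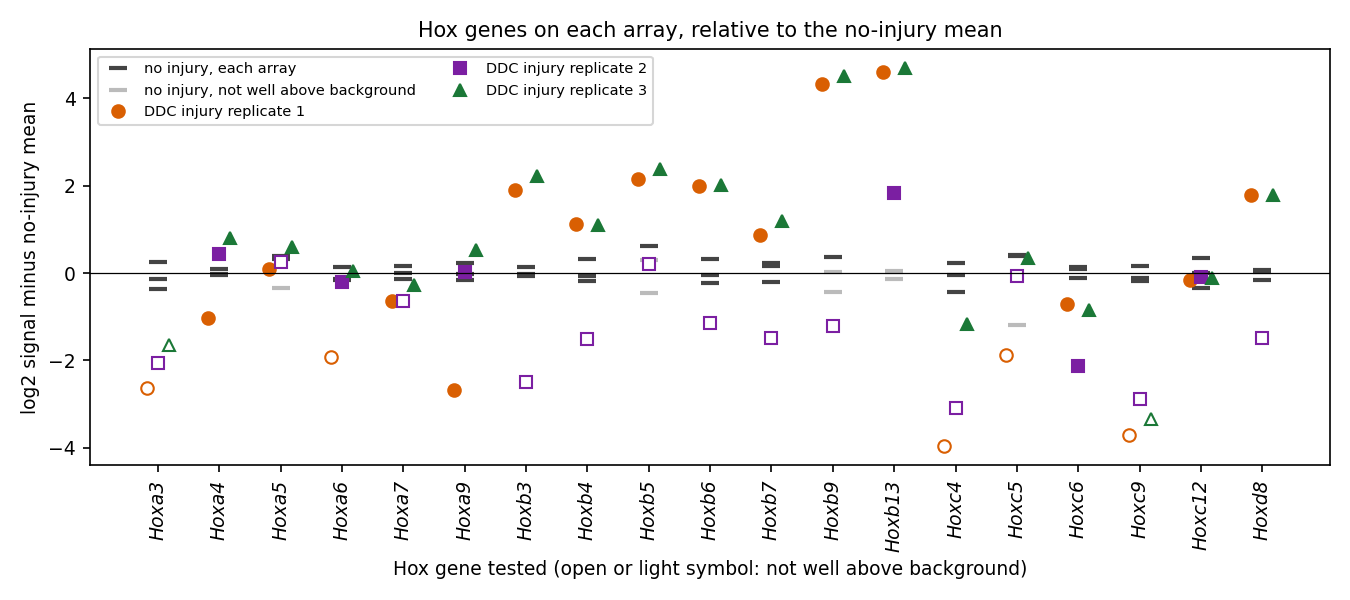
Level of each Hox gene tested on each array, as log2 signal minus the mean of the no-injury samples; filled and dark symbols are well above background, open and light ones are not. DDC injury replicates 1 and 3 lie above the no-injury arrays across the Hoxb genes and Hoxd8, and replicate 2 lies apart from them.

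Hoxa3, which is needed for the thymus, the parathyroids and other pharyngeal organs, fell. No DDC injury array had it well above background, with values of -8.68, -8.13 and -7.72, and all 3 no-injury arrays did, at -6.43, -5.81 and -6.21. It was at least 2.59-fold lower in DDC injury. The bound takes each DDC injury array at its lowest signal well above background or at the probe's own signal, whichever was higher. That lowest signal is the dimmest over all probes. Some probes above it were not well above background, such as Hoxa5 on DDC injury replicate 2, at -6.80 against -6.97. Each fold given as at least is therefore a bound on this scale, not a strict limit. The limma adjusted p was 0.0159, and the size beyond the bound is not measured. Leaving out any 1 no-injury array took the probe below the filter, so it was not tested there. The call was lost on signals corrected with normexp and an offset of 50 (difference -0.05, limma adjusted p = 0.896). It was lost in the deposited log2 values too (difference -0.44, limma adjusted p = 0.0547). Both differences are smaller than the 2.59-fold bound.

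Of the 6 Hoxa genes tested here, the other 5 did not pass. Hoxa4, which acts in the neck and upper trunk, lay at -6.64, -5.17 and -4.81 in DDC injury and at -5.52, -5.65 and -5.64 in no injury. Hoxa6 was not well above background on DDC injury replicate 1, lay at -6.18 and -5.92 on replicates 2 and 3, and between -6.13 and -5.83 in no injury. Hoxa9, a trunk gene also active in blood progenitors and leukaemia, lay at -5.84, -3.11 and -2.62 in DDC injury and at -3.32, -3.18 and -2.93 in no injury. In each of these 3 genes, DDC injury replicate 1 was the low array and the other 2 DDC injury arrays lay near or above no injury. A second probe of Hoxa9 did not show this: it lay at -6.84, -6.58 and -6.03 in DDC injury and at -5.68, -5.52 and -5.72 in no injury, with a difference of -0.87 ± 0.27 (limma adjusted p = 0.0713 in the fit by probe). Hoxa7 lay at -7.20, -7.21 and -6.84 in DDC injury and at -6.71, -6.58 and -6.42 in no injury, a difference of -0.51 ± 0.16 with an adjusted p of 0.0713, and without DDC injury replicate 3 it passed as lower, at -0.64 with an adjusted p of 0.0393, while without replicate 1 or 2 the adjusted p was 0.107 and 0.114. Hoxa5, which acts in lung and diaphragm development, differed by 0.32 ± 0.28 (adjusted p = 0.449). Hoxa10, a gene of the posterior trunk and uterus, was detected on DDC injury replicates 1 and 3, at -6.71 and -6.67, and on no other array, which makes it at least 1.104-fold higher over the 3 samples. Hoxa2 was detected on DDC injury replicate 3 only, at -7.12.

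All 7 Hoxb genes tested had a positive difference, and none passed the test; at an unadjusted p under 0.05, Hoxb13 alone did. Hoxb13, the last gene of its cluster, known for its role in the tail and the prostate, lay at -3.74, -6.49 and -3.64 on DDC injury replicates 1, 2 and 3, well above background on all, and was not well above background on any no-injury array. It was at least 8.18-fold higher in DDC injury, and all DDC injury arrays were above all no-injury arrays. It passed the filter through the DDC injury arrays alone, and the limma adjusted p was 0.0531.

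Hoxb9, a gene of the thoracic trunk, lay at -3.63 and -3.45 on DDC injury replicates 1 and 3 and was not well above background on replicate 2. In no injury it was well above background on replicate 3 only, at -7.59. Its difference over the groups was 2.55 ± 2.01 (adjusted p = 0.393), with replicates 1 and 3 above no injury and replicate 2 not. Hoxb6 lay at -4.02 and -4.00 on DDC injury replicates 1 and 3, was not well above background on replicate 2, and lay at -6.24, -6.07 and -5.70 in no injury. Hoxb3, a gene of the hindbrain and neck, lay at -4.70 and -4.39 on DDC injury replicates 1 and 3, was not well above background on replicate 2, and lay at -6.64, -6.68 and -6.46 in no injury. For both genes, no injury lay below the high pair of DDC injury arrays. The order of no injury and replicate 2 is not measured. Hoxb4, known for expanding blood stem cells when overexpressed, lay at -5.23 and -5.26 on DDC injury replicates 1 and 3 and between -6.55 and -6.04 in no injury. Hoxb7 lay at -5.28 and -4.97 on the same DDC injury arrays and between -6.36 and -5.92 in no injury, and neither it nor Hoxb4 was well above background on replicate 2. Hoxb5, which acts in the shoulder region and the enteric nervous system, lay at -5.54 and -5.31 on those arrays and was well above background on 1 no-injury array, at -7.07. Hoxb8, which passed no filter for the test, was detected on DDC injury replicates 1 and 3 alone, at -5.83 and -6.32, and was at least 1.54-fold higher over the 3 samples. Hoxb2, active in the hindbrain, was detected on DDC injury replicate 3 and no-injury replicate 3, at -6.77 and -7.15.

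DDC injury replicate 2 was thus low for a run of the cluster, a pattern picked out after the values were seen. With each value not well above background raised to its array's lowest level that is, replicate 2 was at least 2-fold below both other DDC injury replicates for 9 of 19 Hox genes, against 2.43% of 15426 genes with a value on all arrays. The 9 were Hoxb3, Hoxb4, Hoxb5, Hoxb6, Hoxb7, Hoxb9, Hoxb13, Hoxc6 and Hoxd8. All 7 tested Hoxb genes were among them, with 1 of 5 Hoxc genes, the 1 Hoxd gene and none of 6 Hoxa genes. Replicate 2 has the highest of these lowest levels. The same share was therefore taken over the 4892 genes within the range of levels of the Hox genes, where it was 3.99%. Replicate 1 was at least 2-fold below both others for 3 of 19 Hox genes (Hoxa4, Hoxa6 and Hoxa9), against 11.4% of all genes and 29.2% of genes in that range of levels, and replicate 3 for none, against 0.0908%. Most of the folds for replicate 2 are bounds on this scale, set by its lowest signal well above background, and do not rank the genes. Hoxb9 was at least 10.1-fold lower than on replicate 1 and at least 11.4-fold lower than on replicate 3. For Hoxb6 they were at least 7.68 and 7.83, for Hoxb13 they were 6.76 and 7.22, for Hoxb3 at least 4.80 and 5.94, for Hoxb7 at least 3.21 and 3.99, for Hoxb4 at least 3.32 and 3.26 and for Hoxb5 at least 2.69 and 3.15. Outside the cluster, Hoxd8 was at least 3.86- and 3.89-fold lower and Hoxc6 was 2.70- and 2.44-fold lower. The count differed between scales that each change more than 1 step of the processing: it was 6 of 19 in the deposited log2 values, and on normexp-corrected signals with an offset of 50 it was 1, Hoxb9, with Hoxb5 and Hoxc6 no longer below replicate 1.

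**Figure D3:**
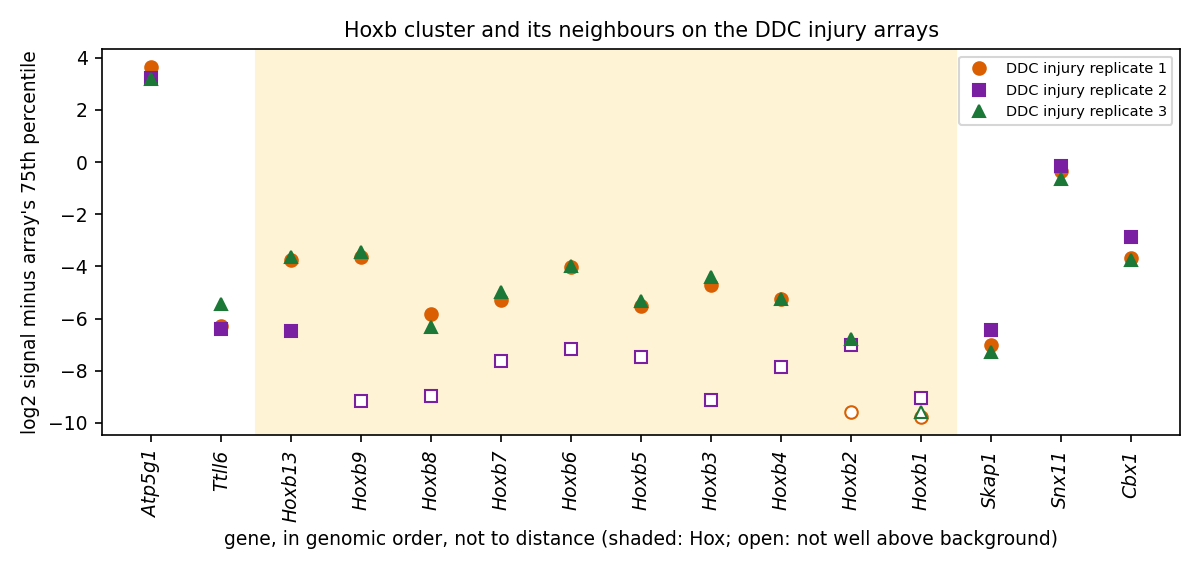
Levels on the 3 DDC injury arrays along chromosome 11, in genomic order without distances, from the neighbours at one end of the Hoxb cluster to those at the other (log2 signal minus the 75th percentile; open symbols are not well above background; symbols compare within a gene). Replicate 2 lies under replicates 1 and 3 for Hoxb13, Hoxb9, Hoxb8, Hoxb7, Hoxb6, Hoxb5, Hoxb4 and Hoxb3. Hoxb3 is drawn before Hoxb4, out of paralogue order. Of the flanking genes, Ttll6 has replicate 2 lowest too, at -6.39 against -6.29 and -5.46.

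The genes around the clusters were read for the same drop on replicate 2. Of the 18 tested genes that flank the 4 clusters, none was at least 2-fold lower on replicate 2 than on both others. Over all genes 2.43% were, so a count of 0 is near that share. Skap1 could not show the drop, since on replicates 1 and 3 it lay under the lowest level of replicate 2, -6.97. Next to Hoxb, Ttll6 lay at -6.29, -6.39 and -5.46 on DDC injury replicates 1, 2 and 3, Skap1 at -7.00, -6.42 and -7.30, and Snx11 at -0.33, -0.16 and -0.66; these genes are named for their place, outside the rule. Over the 1293 other genes tested on chromosome 11, replicate 2 minus the mean of replicates 1 and 3 had a median of 0.11, against 0.07 over all genes. Replicates 2 and 3 came from the same scan.

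Without DDC injury replicate 2 the comparison of groups read differently. With replicates 1 and 3 against the 2 no-injury samples and the filter applied anew, 7 of 18 Hox genes were higher, where 24.1% of 15308 genes were, and 3 of 18 lower, where 20.5% were. The 7 were Hoxb3, Hoxb4, Hoxb5, Hoxb6, Hoxb7, Hoxb9 and Hoxd8, and the 3 were Hoxa3, Hoxc6 and Hoxc9. Hoxb9 and Hoxb5, well above background on 1 no-injury array, were then at least 16.2-fold and at least 3.94-fold higher. On the log2 scale Hoxb3 was 2.06 ± 0.15 higher, Hoxb6 2.01 ± 0.07, Hoxd8 1.79 ± 0.08, Hoxb4 1.12 ± 0.08 and Hoxb7 1.03 ± 0.21, and the adjusted p of the 7 lay between 0.00231 and 0.0403. With the genes of the full comparison kept, Hoxb13 made the count 8 higher, at least 15.6-fold above no injury. Without replicate 1 or replicate 3, limma called 0 of 16 and 0 of 15 Hox genes higher, against 18.2% and 11.4% of all genes. At an unadjusted p under 0.05 it had 1 and 0, against 25.4% and 20.5%. Hoxb5, Hoxb9 and Hoxb13 did not pass the filter in either, and with the genes of the full comparison kept the count was 0 of 19 in both. The differences of Hoxb3, Hoxb4 and Hoxb7 turned negative, but replicate 2 was not well above background for these genes. Its signals there have no order, so a reversal is not measured. Since this replicate was singled out for its Hox values, these figures describe how the result rests on it and are no test of a Hoxb increase.

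**Figure D4:**
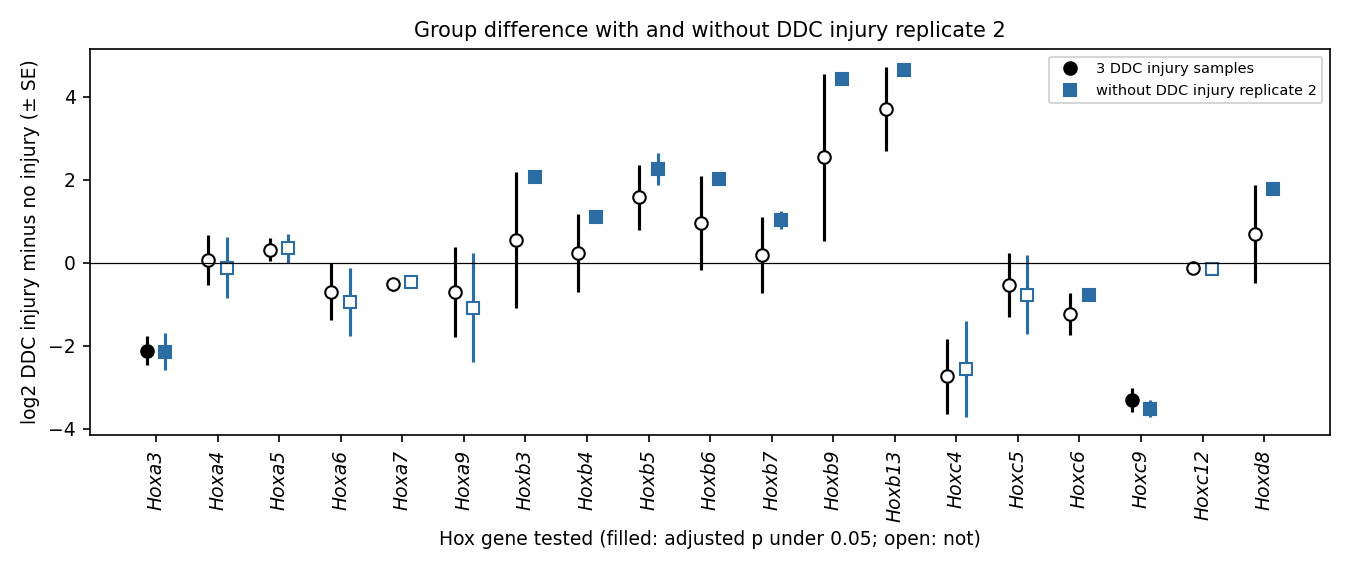
Difference between the groups for each Hox gene tested (log2, DDC injury minus no injury, bars ± SE), with all 3 DDC injury samples (circles) and without replicate 2 (squares, genes of the full comparison kept); filled symbols have a limma adjusted p under 0.05. The filled circles are Hoxa3 and Hoxc9, and the squares of all 7 Hoxb genes and Hoxd8 are filled. The size is not measured for Hoxa3, Hoxb5, Hoxb9, Hoxb13, Hoxc4, Hoxc5 and Hoxc9, which had at most 1 array of a group well above background.

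Promoter sequence is shown for genes on either side of this pattern. RefSeq windows of the 250 bases before the transcript start (assembly GRCm38.p6) were matched by symbol for 22 of the 38 genes, in 24 windows. Hoxb4, Hoxb8 and Hoxd8 were high on DDC injury replicates 1 and 3, and Hoxa3 fell. Capitals mark matches on either strand to TTTATG (a core bound by caudal factors), TGATNNAT (Hox with PBX), TGACAG (MEIS) or AGGTCA (retinoic acid and other nuclear receptors). The windows are chr11:96318017-96318266 on the plus strand for Hoxb4, chr11:96281655-96281904 on the plus strand for Hoxb8, chr2:74704365-74704614 on the plus strand for Hoxd8 and chr6:52213068-52213317 on the minus strand for Hoxa3. The Hoxa3 window lies between the windows of Hoxa6 and Hoxa7, out of paralogue order. Whether the Hoxa3 probe reads the transcript that starts there was not checked.
Hoxb4: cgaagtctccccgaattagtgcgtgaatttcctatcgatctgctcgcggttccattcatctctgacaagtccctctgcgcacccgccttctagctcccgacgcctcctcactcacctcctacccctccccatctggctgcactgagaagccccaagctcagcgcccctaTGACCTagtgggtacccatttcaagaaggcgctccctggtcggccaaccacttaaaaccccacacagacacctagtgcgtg
Hoxb8: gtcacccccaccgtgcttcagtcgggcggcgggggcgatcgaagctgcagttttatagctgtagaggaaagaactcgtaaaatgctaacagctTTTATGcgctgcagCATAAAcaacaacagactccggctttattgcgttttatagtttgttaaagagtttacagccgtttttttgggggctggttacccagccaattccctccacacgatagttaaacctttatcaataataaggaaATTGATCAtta
Hoxd8: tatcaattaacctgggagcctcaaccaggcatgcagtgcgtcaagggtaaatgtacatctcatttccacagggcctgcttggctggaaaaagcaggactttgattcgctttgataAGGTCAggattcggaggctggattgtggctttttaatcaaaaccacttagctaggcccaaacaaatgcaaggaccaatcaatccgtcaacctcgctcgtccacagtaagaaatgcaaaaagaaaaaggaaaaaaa
Hoxa3: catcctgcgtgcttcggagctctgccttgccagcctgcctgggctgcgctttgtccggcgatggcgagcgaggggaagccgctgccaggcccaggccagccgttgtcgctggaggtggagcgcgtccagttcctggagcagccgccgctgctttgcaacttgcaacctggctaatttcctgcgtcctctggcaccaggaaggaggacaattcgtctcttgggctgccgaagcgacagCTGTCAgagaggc
The Hoxb8 window holds 2 matches to the caudal core and 1 to the Hox with PBX motif, the Hoxb4 and Hoxd8 windows hold 1 AGGTCA each, and the Hoxa3 window holds 1 MEIS motif. Over the 24 Hox windows, 5 (20.8%) held the caudal core, against 10.8% of 32851 windows of the same length, and 4 (16.7%) held the Hox with PBX motif, against 7.68%. AGGTCA was in 6 (25.0%), against 14.0%, and the MEIS motif in 2 (8.33%), against 15.9%. The Hox windows held a median of 12.5 CpG dinucleotides and the windows at large 6.0. These are letter matches, and no binding was measured.

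Each of the 5 Hoxc genes tested had a negative difference, and Hoxc9 alone passed. With normexp, the differences of Hoxc5 and Hoxc12 were positive, at 0.19 and 0.087. Hoxc9, which marks the thoracic spinal cord and trunk, fell. Hoxc9 lay at -6.42, -6.15 and -6.48 on no-injury replicates 1, 2 and 3 and was not well above background on any DDC injury array, at -10.01, -9.19 and -9.64. It was at least 2.19-fold lower in DDC injury, with a limma adjusted p of 0.00371, and the size beyond the bound is not measured. Without any 1 of the no-injury arrays it did not pass the filter either. On normexp-corrected signals the call was lost, with a difference of -0.20 and a limma adjusted p of 0.624. In the deposited log2 values the difference was -0.80 and the limma adjusted p was 0.0067. Both differences are smaller than the 2.19-fold bound.

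Hoxc4, a gene of the neck and upper trunk, lay at -6.60, -5.94 and -6.22 in no injury and was well above background on DDC injury replicate 3 only, at -7.33. Every DDC injury array was below every no-injury array, and Hoxc4 was at least 2.30-fold lower in DDC injury, with an adjusted p of 0.0846. The adjusted p was 0.0242 without DDC injury replicate 3, its highest DDC injury array, 0.0948 without replicate 1, 0.179 without replicate 2 and 0.616 with normexp. Hoxc6 was detected everywhere, at -5.23, -6.67 and -5.38 in DDC injury and at -4.39, -4.64 and -4.44 in no injury. The groups did not overlap, and the difference was -1.23 ± 0.50 with an adjusted p of 0.135. Hoxc5 was detected on DDC injury replicate 3, at -7.12, and on no-injury replicates 1 and 2, at -7.04 and -7.07, and differed by -0.54 ± 0.77. Hoxc12, a posterior gene with a role in skin, lay close on all arrays, at -5.98, -5.91 and -5.93 in DDC injury and at -6.16, -5.82 and -5.48 in no injury. Its difference was -0.12 ± 0.09 with an adjusted p of 0.367. Hoxc8 was detected on no-injury replicate 1 alone, at -7.15, and Hoxc10 on replicate 3 of each group, at -7.34 in DDC injury and -7.74 in no injury.

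Hoxd8 was the 1 tested gene of the Hoxd cluster and had the Hoxb pattern. It lay at -5.02 and -5.01 on DDC injury replicates 1 and 3, was not well above background on replicate 2, and lay at -6.97, -6.73 and -6.76 in no injury. Its difference over the groups was 0.69 ± 1.17 with an adjusted p of 0.685. Hoxd4 was detected on no-injury replicates 1 and 3, at -6.74 and -6.67, Hoxd10, a limb gene, on DDC injury replicate 2, at -6.59, and Hoxd11, which patterns the forearm, on no-injury replicate 3, at -6.90. Among paralogues, Hoxa3 fell and Hoxb3 had a difference of 0.54 ± 1.64, and Hoxc9 fell while Hoxb9 had a difference of 2.55 and Hoxa9 one of -0.71 ± 1.08.

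Many fibroblast, endothelial and leukocyte markers were low on DDC injury replicate 1, and so were Hoxa4, Hoxa6 and Hoxa9. These 3 of 19 Hox genes were not above the share at their levels, 29.2%. A second Hoxa9 probe did not show the drop. Of 12 fibroblast and stellate cell markers, 6, 9 and 11 were well above background on DDC injury replicates 1, 2 and 3, and 9, 7 and 10 on the no-injury arrays. Their summed level, in multiples of the 75th percentile, was 0.282, 0.710 and 1.36 in DDC injury and between 0.542 and 0.786 in no injury. Col1a2, Col3a1 and Pdgfrb were well above background on DDC injury replicates 2 and 3 and not on replicate 1, Lrat and Lum on replicate 3 alone of the DDC injury arrays, and Des on no array. Col1a1 lay at -2.92 on replicate 1, against -1.85 and -1.40 on replicates 2 and 3. Thy1, named after its values were seen, went the other way, at -4.06 on replicate 1 against -5.83 and -5.43. Of 8 endothelial markers, 3, 6 and 6 were well above background in DDC injury and 7, 6 and 7 in no injury, with summed levels of 0.174, 0.438 and 0.602 in DDC injury and 0.548 to 0.817 in no injury. Replicate 1 was at least 2-fold below both other DDC injury replicates for 7 of 9 tested fibroblast and stellate markers, 4 of 6 endothelial markers and 4 of 6 leukocyte markers, against the 11.4% of all genes and 29.2% of genes at the levels of the Hox genes given above. Replicate 2, which was low for Hoxb, was so for none of these, against 2.43% of all genes. In all the marker lists it was so for Gpm6a of mesothelium only. In cultures measured as a whole, fewer cells of a type and less RNA per cell cannot be told apart, and the part of such cells in the Hox values was not tested.

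**Figure D5:**
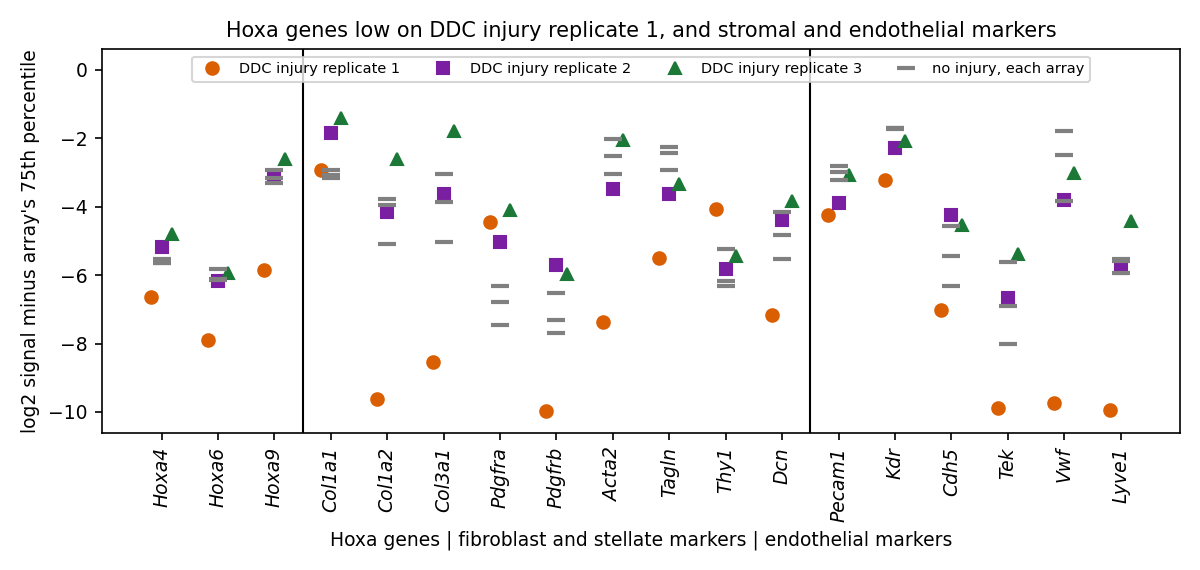
Levels (log2 signal minus the 75th percentile) of the 3 Hoxa genes that were low on DDC injury replicate 1 and of the tested fibroblast, stellate and endothelial markers, on the 3 DDC injury arrays and, as grey marks, the 3 no-injury arrays; symbols compare within a gene. Replicate 1 is the lowest DDC injury array for Hoxa4, Hoxa6 and Hoxa9 and for most of the markers. Hoxa9 is drawn by its brighter probe, and a second probe, not drawn, did not show the drop.

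Replicate 1 was that far below both others for 2 of 9 hepatocyte markers, 1 of 10 bile duct and progenitor markers and 0 of 6 mesothelial markers. Between the groups, several of these markers fell, where 15.8% of all genes did. Of 9 hepatocyte markers 5 were lower, and of 10 tested markers of bile duct cells and liver progenitors 5 were lower. Epcam, an epithelial adhesion molecule, fell by 2.58, with a standard error of 0.24. Of 6 tested mesothelial markers 1 was higher and 2 lower, with Wt1 at -8.13, -7.07 and -6.79 in DDC injury and between -4.11 and -3.94 in no injury. Ptprc, the pan-leukocyte gene, and Pecam1 of endothelium differed by 0.36 ± 0.90 and -0.79 ± 0.39, which did not pass. Of 6 tested leukocyte markers 1 was lower, Itgam of myeloid cells, which fell by 2.73 (SE 0.29), and of 9 fibroblast and stellate markers 1 was higher, Pdgfra, which rose by 2.49 ± 0.42. These 2 genes are named after their values were seen.

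The cofactors of Hox proteins were well above background on all 6 arrays. For 0 of 8 was DDC injury replicate 1 or 2 at least 2-fold below both others, against 11.4% and 2.43% of all genes. Of 8 TALE-class homeodomain genes, 1 was higher and 3 lower, against 17.7% and 15.8% of all genes, the background for each list that follows. The median difference was 0.02, against -0.07 over all genes. Meis2 fell by 1.11 (SE 0.11) and Meis3 fell by 1.09 (SE 0.15), both cofactors that bind with PBX, and Meis1 fell by 1.29 (SE 0.27). Pbx3 rose by 0.95 (SE 0.13), from -0.79 to -0.78 in no injury to -0.02 to 0.29 in DDC injury. Limma adjusted p-values of these 4 were between 0.00536 and 0.0279.

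Upstream of the clusters, 4 of 19 tested caudal factors and retinoic acid genes were higher and 4 lower, against 17.7% and 15.8% of all genes, with a median of -0.05. Cyp26b1, which breaks down retinoic acid, rose by 3.75 ± 0.10, lying between -0.48 and -0.34 in DDC injury and between -4.20 and -4.08 in no injury. Stra6, the retinol uptake receptor, rose by 2.88 ± 0.19, and Rarb, a retinoic acid receptor and itself a retinoic acid target, fell by 2.33 (SE 0.13). Rarg, another of these receptors, rose by 1.52 ± 0.18. Adjusted p-values of these 4 were between 0.000586 and 0.00783. Cyp26a1, of the same family as Cyp26b1 and named outside the rule, went the other way. It fell by 1.47 (SE 0.29, limma adjusted p = 0.0242). Cdx2, the caudal factor of the intestine, which activates trunk Hox genes, is added outside the rule after its values were seen. It lay at -2.38, -2.32 and -2.43 in no injury, was well above background on DDC injury replicate 2 only, at -6.86, and was at least 32.9-fold lower in DDC injury (limma adjusted p = 0.0110). In this list replicate 2 was at least 2-fold below both other DDC injury replicates for 1 of 19 genes, against 2.43% of all genes. The gene was Aldh1a3, which makes retinoic acid.

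Of 28 Polycomb genes 6 were higher and 5 lower, near the 17.7% and 15.8% of all genes, with a median of -0.01. Ezh2, the methyltransferase of the repressive complex, rose by 1.14 ± 0.12, and its partners Rbbp7 and Aebp2 rose by 0.76 ± 0.13 and 0.79 ± 0.12. Yaf2, of a variant complex, rose by 1.54 ± 0.13. The 5 lower, named outside the rule, were Jarid2, Phf1, Ring1, Cbx7 and Cbx8, so the list did not move in a single direction. Of 14 trithorax and MLL complex genes 1 was higher and 1 lower: Psip1, which tethers MLL to chromatin, rose by 0.73 ± 0.11, and Kat6a, an acetyltransferase that maintains Hox expression, fell by 0.52 (SE 0.11). None of the genes in these 2 lists was at least 2-fold lower on DDC injury replicate 2 than on both others, against 2.43% of all genes.

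Genes beside the clusters and other homeobox genes were read as a comparison. Of the 18 tested flanking genes, 7 were higher and 2 lower, with a median of 0.31. Lnpk, beside Hoxd, rose by 1.78 ± 0.16, Cbx5 and Hnrnpa1, beside Hoxc, rose by 1.46 ± 0.19 and 0.92 ± 0.10, and Calcoco1, also near Hoxc, fell by 0.73 (SE 0.10). Over 613 other genes tested on chromosome 15, which holds Hoxc, the median difference was 0.36. It was -0.02 on chromosome 6, -0.05 on chromosome 11 and -0.05 on chromosome 2. The 5 Hoxc genes tested were at negative differences, but Hoxc9 alone passed, and Hoxc5 and Hoxc12 turned positive with normexp. Of 22 tested homeobox genes of the same class outside the clusters, 3 were higher and 3 lower, with a median of -0.32. Meox1, a gene of the somites, rose by 3.56 ± 0.54, Hlx, which is needed for liver growth in the embryo, rose by 0.72 ± 0.12, En1 of the midbrain and limb fell by 2.16 (SE 0.12) and Barx2 fell by 1.08 (SE 0.16). For 7 of these 22, DDC injury replicate 1 was at least 2-fold below both other DDC injury replicates. The shares were 11.4% of all genes and 29.2% of genes at the levels of the Hox genes. Replicate 2 was so for none, against 2.43% and 3.99%. The 1 tested transcript antisense to a Hox gene, Hoxa11os, did not pass, with a difference of 0.03 ± 0.51.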

How the data were processed

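Spots of 6 one-colour Agilent arrays of design 026655 had been quantified by the authors with Feature Extraction 11.0.1.1 against an mm9 annotation, per the file headers, as intensity values: the processed signal, background-subtracted and detrended, with the median signal and local background. The deposited series table holds log2 values normalized by the authors; the submitters' processing notes name limma. The column their values started from is not given in the sources used here.

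Of 39429 probes, 27234 were named through their accession in RefSeq (GRCm38.p6). Outlier spots were left out, repeated spots averaged, and each processed signal was set, as log2, against the 75th percentile of its array. The probe with the highest mean stood for its gene. It was tested if 3 or more of the 6 arrays had it well above background and each group had 2 or more values. No-injury replicates 1 and 3 were averaged. The comparison used lmFit and eBayes of limma 3.58.1 (R 4.3.3, two-sided), with Benjamini-Hochberg adjustment over all genes and a threshold of 0.05; the fit was tested on simulated data. The number of samples limits the precision, and signals not well above background have no order.

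The Hox genes are given by cluster. Some genes that the rule or the lists take are not reported here and stay out of their counts. Of each other list, the 4 genes or fewer with the lowest adjusted p past the threshold are named, or, where fewer than 2 passed, up to 2 with the highest level, and of the markers a set of 10. Members and lists were chosen with earlier results of these data known. Alternatives were all arrays as samples, background correction, normalization, filter, probe rule, replicate or scan as a block, array weights and leaving out each replicate. Same-numbered arrays deviated together with correlations of 0.12, 0.02 and 0.12, so the numbers were not taken as pairs.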

Additional observations from a re-analysis of the deposited data

How the results depend on the processing

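Counts of Hox genes called are small and moved with the scale and the samples. Against 0 of 19 Hox genes higher and 2 lower, with 17.7% and 15.8% of all genes, counting all 6 arrays gave 1 and 5 (24.6% and 23.2% of all genes), averaging the no-injury arrays 0 and 0 (342 and 206 genes), normexp 1 and 0 (17.5% and 13.7%), the deposited values 0 and 1 (17.8% and 17.5%), detection on all 6 arrays 0 and 0 of 4 genes (22.1% and 18.4%), testing every probe 1 and 2 (18.9% and 16.1%), and array weights 1 and 4 (24.8% and 23.5%). At an unadjusted p under 0.05 limma had 5 Hox genes higher and 1 lower with normexp, 1 and 3 in the deposited values, 0 and 0 with detection on all 6 arrays, and 0 and 2 with the no-injury arrays averaged. The replicate number as a replicate block gave 2 and 4, with 2839 and 2726 over all genes, though the numbers do not pair the samples. Leaving out 1 replicate gave 0 to 7 Hox genes higher and 0 to 4 lower, and 352 to 3692 genes higher and 167 to 3145 lower over all; the lowest counts came without no-injury replicate 2, where 1 sample stands for its group and limma had 0 Hox genes higher and 0 lower at an unadjusted p under 0.05. Without no-injury replicate 1 or 3, Hoxa3 and Hoxc9 no longer passed the filter, so no lower gene was called, while 2 were at an unadjusted p under 0.05. With the genes of the full comparison kept, an alternative added after the values were seen, leaving out DDC injury replicate 2 gave 8 Hox genes higher, and replicate 3 gave 4 lower, with 1719 and 1507 over all genes; in it Hoxa4 was -0.11 without replicate 2 and -0.29 without replicate 3. Without replicate 1, then without replicate 3, it gave -0.14 and -0.30 for Hoxb3, -0.20 and -0.19 for Hoxb4 and -0.15 and -0.31 for Hoxb7, and without replicate 1 it gave 0.28 for Hoxa9 and 0.13 for Hoxc5. The signs for Hoxb3, Hoxb4, Hoxb7 and Hoxc5 rest on signals not well above background, which have no order. With normexp, Hox genes at least 2-fold lower on DDC injury replicate 1 or 2 than on both others numbered 1 and 1, and in the deposited values 1 for replicate 1; these scales were added after the values were seen. Directions reversed with normexp for Hoxa7 (0.082), Hoxc5 (0.19) and Hoxc12 (0.087), and with quantile normalization for Hoxc12 (0.11); the cause was not tested. Leaving out 1 replicate in turn gave differences of Hoxa4 -0.29 to 0.62, Hoxa5 -0.031 to 0.43, Hoxa9 -1.33 to 0.28, Hoxb3 -0.30 to 2.06, Hoxb4 -0.20 to 1.12, Hoxb7 -0.31 to 1.03, Hoxc5 -0.94 to 0.13 and Hoxc12 -0.29 to 0.047. None of these genes passed in the full comparison. Of 366 values of single Hox genes under the alternatives, 300 kept direction and call, 34 gained the call, 5 lost it and 27 reversed. Reversals of Hoxb3, Hoxb4 and Hoxb7 among the 27 rest on DDC injury replicate 2, which was not well above background for them. Signals near background limit the Hox values: only 4 of 38 genes were detected on every array.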
